A study of Mus musculus with 3 samples.

Results

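The NEDD4 family of HECT ubiquitin ligases has 9 members in the mouse, Nedd4, Nedd4l, Itch, Wwp1, Wwp2, Smurf1, Smurf2, Hecw1 and Hecw2. Twist1 binding regions of these 9 genes were taken from the peak lists of 3 tissues as every peak that names a member as its nearest gene on the lower or the higher coordinate side, at a distance of 0 to 50 Kb. There were 57 such peaks among 67468, of which 9 of 10965 were in endocardial cushions (ECCs), 41 of 48965 in limb buds and 7 of 7538 in peripheral nerve sheath tumor (PNST) cells.

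Ubiquitin ligases of this family carry a catalytic HECT domain that accepts ubiquitin from an E2 enzyme and passes it to a substrate, and WW domains that recognize proline-rich (PY) motifs in substrates and adaptors. Most members also carry a C2 domain that binds membrane lipids. They control the turnover of receptors, channels, Smad proteins and transcription factors, and through these they act in TGF-beta and BMP signaling, in cell migration and in the growth of embryonic tissues.

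ChIP with an antibody to Twist1 (5 μg), a transcription factor of the bHLH class whose binding motif is the E-box (CANNTG), was followed by sequencing in 3 samples of the FVB/N strain. ECCs, the precursors of the heart valves, were dissected from the atrioventricular canal of wild-type embryos at E12.5, and forelimb buds were taken from wild-type embryos at E10.5. PNST cells are a cultured mouse tumor line, without a stated day or age. Litters or culture plates were pooled into 1 sample for each tissue, so there were no replicates, and no difference between tissues could be tested against the variation between samples of 1 tissue.

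The lists differ in depth and in the smallest peak that was called. After removal of duplicates the libraries held 3149934 tags (mapped reads) in ECCs, 14893391 in limb buds and 11823220 in the PNST line. The smallest peak in each list had 5, 8 and 7 tags, and the median peak had 6, 10 and 8 tags. Depth and tissue cannot be told apart with 1 sample each, and a region without a peak was not detected at that depth. Tag counts are given with exact 95% Poisson intervals where depths are compared, and these cover counting error only.

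Limb buds had a Twist1 peak at all members, ECCs at most of them and PNST cells at Hecw1 and Nedd4l. Of the 9 genes, 6 had a peak in ECCs, where 36.3% of the 14619 gene names in the lists had one. All 9 had a peak in limb buds, against 87.5% of gene names, and 2 had a peak in the PNST line, against 23.6%. Members are long genes, with the shortest spanning 87286 bp. Among the 2584 gene names with a protein-coding span of at least this length, 51.8% had a peak in ECCs, 94.4% in limb buds and 38.4% in the PNST line. The presence of peaks at members was thus near that of genes of like length in limb buds, and with 9 genes the counts in the other tissues differ from these shares by 1 or 2 genes.

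**Figure D1:**
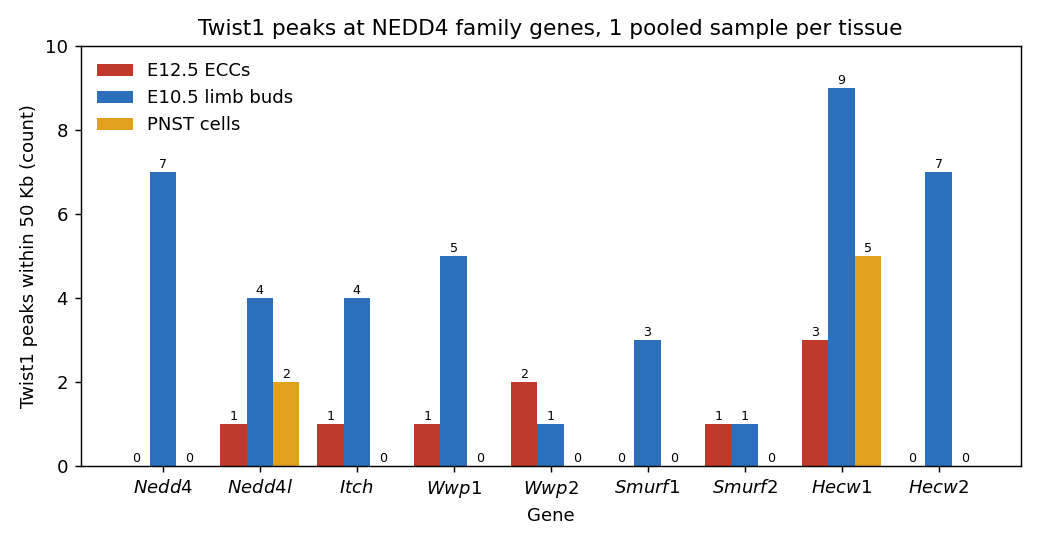
Number of Twist1 peaks (vertical axis) for which the list names the NEDD4 family gene (horizontal axis) at a distance of up to 50 Kb in ECCs, limb buds and the PNST line. Each bar is the count in 1 pooled sample, so there are no error bars. Limb buds have the most peaks at 7 genes and the same number as ECCs at Smurf2, ECCs have the most at Wwp2, and the 7 PNST peaks name Nedd4l or Hecw1.

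By tissue, Hecw1 and Nedd4l had peaks in all 3 samples. Itch, Wwp1, Wwp2 and Smurf2 had peaks in ECCs and limb buds, and Nedd4, Smurf1 and Hecw2 only in limb buds. This order counts peaks that name the gene. When every peak within the annotated gene and 50 Kb on either side was counted, PNST cells had a peak at 4 members, with 1 each at Itch and Smurf1, whereas ECCs still had one at 6 and limb buds at 9. The limb bud list used here is several times longer than the limb bud list in the study’s supplement, and the limb bud counts refer to the longer list alone. Member peaks made up 0.0821% of the ECC list (exact 95% interval 0.0375 to 0.156), 0.0837% of the limb bud list (0.0601 to 0.114) and 0.0929% of the PNST list (0.0373 to 0.191). The 3 intervals overlap. These intervals and those that follow treat peaks as independent and cover counting error only. In the 2.51 Mb made up of the annotated genes and 50 Kb on either side, there were 3.99 peaks per Mb in ECCs (1.91 to 7.33), 17.5 in limb buds (12.7 to 23.5) and 3.59 in the PNST line (1.64 to 6.81). The assembled chromosomes held 4.013, 17.95 and 2.734 peaks per Mb, each within the interval of the member windows.

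When each list was cut to the 7538 peaks with the smallest p-values, the length of the PNST list, limb buds had 9 member peaks in 5 genes, ECCs 7 in 5 genes and PNST cells 7 in 2 genes. In lists of equal length the member peaks thus numbered 7 to 9 in each tissue. The limb bud genes left were Nedd4l, Hecw1, Wwp1, Hecw2 and Itch. No limb bud peak of Nedd4, Smurf1, Wwp2 or Smurf2 was left. The grouping of these genes by tissue, and the number of limb bud peaks at Nedd4, therefore depend on the longer limb bud list. At a p-value of 1e-10 or smaller, a score of at least 100 in the lists, 1 of 9 member peaks was left in ECCs, 6 of 41 in limb buds and 1 of 7 in the PNST line, where 10.4%, 9.01% and 8.28% of all peaks reached it.

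Hecw1, also called NEDL1, a member known mainly from the nervous system, had the most peaks, with 3 in ECCs, 9 in limb buds and 5 in the PNST line. The gene (ENSMUSG00000021301.7) lies on the minus strand of chromosome 13 at chr13:14318705-14615493 in mm9. One intergenic region upstream of its start was called in all 3 tissues. Its sequence is given from the plus strand of mm9, chr13:14619161-14619355, because it was called in all 3 samples, and capitals mark its E-boxes.

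Hecw1 upstream region, all tissues: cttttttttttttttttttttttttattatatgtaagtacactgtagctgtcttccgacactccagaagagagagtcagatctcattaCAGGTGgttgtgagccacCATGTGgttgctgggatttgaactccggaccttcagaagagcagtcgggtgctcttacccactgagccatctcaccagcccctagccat

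The region had 7 tags in ECCs, 22 tags in limb buds and 7 tags, the minimum of that list, in the PNST line. Its summit lay 3.75 Kb upstream of the transcription start in ECCs and 3.74 Kb upstream in both other samples, and 106 bp were common to the 3 peaks. Per 1000000 filtered tags this was 2.22 in ECCs (0.893 to 4.58), 1.48 in limb buds (0.926 to 2.24) and 0.592 in the PNST line (0.238 to 1.22), and the intervals overlap. Fold enrichment over the local background was 52.91, 42.61 and 18.21. The ECC value lay at or above that of 95% of peaks in its list, the limb bud value at or above 99.4% and the PNST value at or above 84.7%. The region holds 2 E-boxes, CAGGTG and CATGTG, and both lie in the sequence common to the peaks.

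The other Hecw1 peaks were not overlapped between tissues. In ECCs they were 2 upstream peaks of 5 tags each, 34.5 and 47.7 Kb from the start. In limb buds 3 peaks lay in introns, with 10 tags in intron 26 and with 11 and 13 tags in intron 2. Downstream of the gene, 4 limb bud peaks had 8 to 15 tags, and 3 of them fell between chr13:14305969-14306944. In PNST cells 3 peaks of 7 or 8 tags lay in introns 3, 7 and 26. The PNST peak in intron 26 (8 tags, chr13:14332146-14332258) was within 1 Kb of the limb bud peak in the same intron (10 tags, chr13:14331339-14331473), without overlap. The PNST peak with the most tags, 9, was downstream of the gene at chr13:14304615-14304771, and its plus strand, printed as the strongest Hecw1 peak by tags in the tumor line, holds no E-box.

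Hecw1 downstream peak, PNST cells: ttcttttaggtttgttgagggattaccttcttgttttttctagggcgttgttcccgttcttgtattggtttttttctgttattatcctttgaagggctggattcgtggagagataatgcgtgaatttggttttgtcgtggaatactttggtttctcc

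Upstream of Hecw1 and beyond the limit, a further region was called in ECCs (8 tags, chr13:14677350-14677579) and limb buds (9 tags, chr13:14677445-14677579). It lies 62259 and 62354 bp from Hecw1 by the deposited distances, past the limit of 50 Kb, so it was not counted. It is nearer to Mrpl32.

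**Figure D2:**
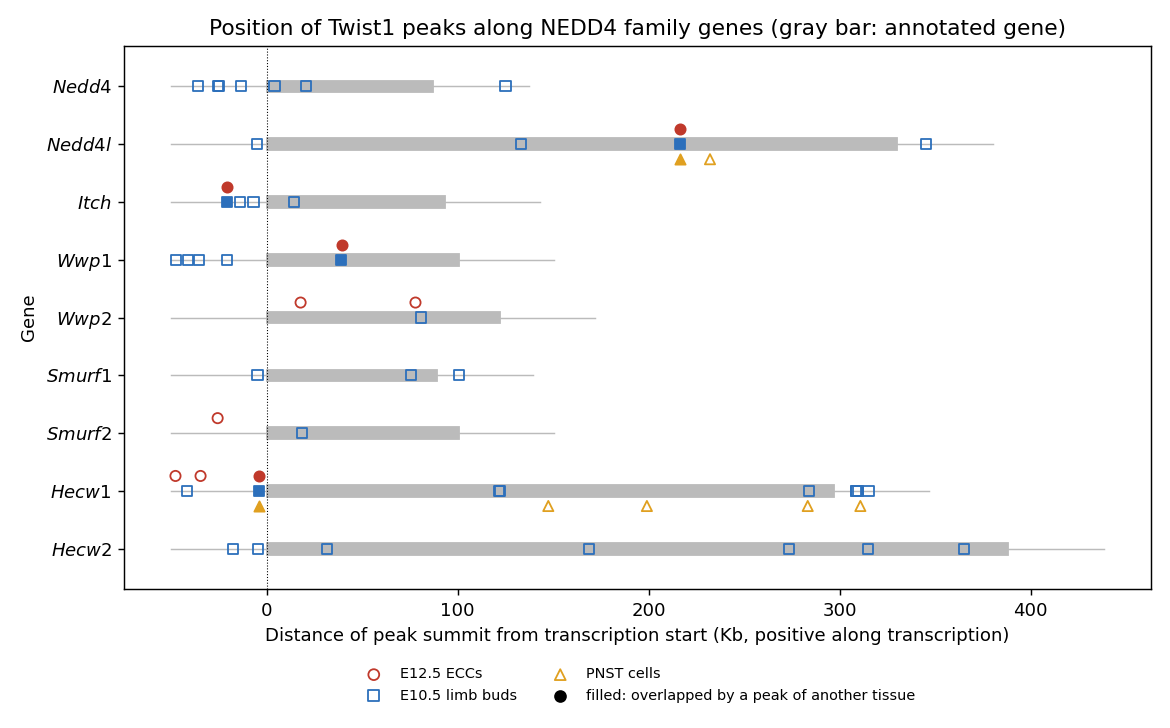
Position of each Twist1 peak summit (horizontal axis, Kb from the transcription start, positive in the direction of transcription) at the 9 genes, with circles for ECCs, squares for limb buds and triangles for PNST cells. Gray bars are the annotated genes, thin lines reach 50 Kb to each side, and filled symbols mark peaks overlapped by a peak of another tissue, which occur at 4 genes, once each.

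Itch, the ligase lost in the itchy mouse with its inflammatory skin disease, had 1 peak in ECCs, 4 in limb buds and none in the PNST line. It lies on the plus strand of chromosome 2 at chr2:154959245-155052591 (ENSMUSG00000027598.9). The ECC peak and 1 limb bud peak overlapped in intergenic sequence 20.8 Kb upstream of the start, between Ahcy and Itch. This region, chr2:154938377-154938593, is shown from the plus strand with its E-box in capitals, followed by the limb bud peak with the most tags, chr2:154945301-154945513, also upstream.

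Itch upstream region, ECCs and limb buds: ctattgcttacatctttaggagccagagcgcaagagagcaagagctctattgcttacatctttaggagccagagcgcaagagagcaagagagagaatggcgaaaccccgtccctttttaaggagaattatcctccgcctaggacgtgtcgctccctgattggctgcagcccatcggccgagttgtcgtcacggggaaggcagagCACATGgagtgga

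Itch upstream peak, limb buds: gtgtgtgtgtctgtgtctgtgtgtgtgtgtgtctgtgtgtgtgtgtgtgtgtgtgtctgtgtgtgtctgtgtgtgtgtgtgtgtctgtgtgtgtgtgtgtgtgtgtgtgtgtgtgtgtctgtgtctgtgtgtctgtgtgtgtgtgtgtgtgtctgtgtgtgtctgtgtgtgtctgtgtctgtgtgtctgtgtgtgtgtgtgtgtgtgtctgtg

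The shared region had 5 tags in ECCs, the minimum of that list, and 10 tags in limb buds. These are 1.59 (0.515 to 3.7) and 0.671 (0.322 to 1.23) per 1000000 filtered tags, with overlapping intervals. Its E-box, CACATG, lies in the part covered by the ECC peak and not in the limb bud peak. The limb bud peak with 17 tags, 13.8 Kb upstream, consists of a GT-rich tandem repeat without an E-box. A peak of 16 tags lay 6.76 Kb upstream of the start, and a peak of 9 tags with 2 E-boxes lay in intron 2. In PNST cells the nearest peak (20 tags, chr2:155068925-155069225) was 16.3 Kb past the end of Itch, and the list names Dynlrb1 for it on both sides.

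Wwp1, which acts on Runx2 and Klf5, had 1 peak in ECCs, 5 in limb buds and none in the PNST line. The gene (ENSMUSG00000041058.8) is on the minus strand at chr4:19535450-19636140. In intron 5, an ECC peak of 6 tags (chr4:19596722-19596846) and a limb bud peak of 17 tags (chr4:19596822-19597055) overlapped by 25 bp, with summits 39.4 and 39.2 Kb from the start. The limb bud peak is printed from the plus strand as the stronger of the pair.

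Wwp1 intron 5 peak, limb buds: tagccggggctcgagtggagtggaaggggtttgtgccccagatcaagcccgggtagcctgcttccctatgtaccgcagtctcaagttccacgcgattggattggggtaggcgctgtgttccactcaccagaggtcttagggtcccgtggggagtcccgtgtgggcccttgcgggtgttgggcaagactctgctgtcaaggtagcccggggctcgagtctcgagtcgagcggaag

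The ECC peak holds 2 E-boxes and the limb bud peak none. Per 1000000 filtered tags the values were 1.9 in ECCs (0.699 to 4.15) and 1.14 in limb buds (0.665 to 1.83), with overlapping intervals. Each value is of a whole peak, and only 25 bp are common to the peaks, so these are not measures of the same stretch. Fold enrichment was 28.34 and 18.94. The other 4 limb bud peaks, with 8 to 16 tags, were all upstream, at 20.9, 35.4, 41.1 and 47.4 Kb. Past 50 Kb upstream, ECCs (6 tags, chr4:19694121-19694287) and limb buds (11 tags, chr4:19694122-19694289) shared another region, 58135 and 58136 bp from Wwp1 and nearer to Slc7a13. The PNST list names Wwp1 once, for a peak of 12 tags at 77146 bp. The nearest PNST peak (7 tags, chr4:19481455-19481608) was 53.8 Kb from the gene, and the list names Cpne3 for it on both sides.

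Wwp2, which is expressed in developing cartilage, had more peaks naming it in ECCs than in limb buds, as no other member did. There were 2 in ECCs, 1 in limb buds and none in the PNST line. The gene (ENSMUSG00000031930.9) spans chr8:109960298-110082494 on the plus strand. Both ECC peaks had 5 tags, the minimum of the list, and lay in introns 2 and 7. The limb bud peak had 10 tags, was in intron 7 as well and did not overlap either. The ECC peak in intron 2 (chr8:109978089-109978234) and the limb bud peak (chr8:110040920-110041031) are shown from the plus strand, and neither holds an E-box.

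Wwp2 intron 2 peak, ECCs: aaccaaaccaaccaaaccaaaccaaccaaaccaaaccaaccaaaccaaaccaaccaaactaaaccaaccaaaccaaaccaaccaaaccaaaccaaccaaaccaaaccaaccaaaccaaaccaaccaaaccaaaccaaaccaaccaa

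Wwp2 intron 7 peak, limb buds: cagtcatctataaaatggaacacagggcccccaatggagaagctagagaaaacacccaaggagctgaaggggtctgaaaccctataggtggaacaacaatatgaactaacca

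The intron 2 peak consists almost entirely of a tandem repeat of the letters aacc and aaacc. The other ECC peak (chr8:110038218-110038362) holds 1 E-box, CAAGTG. With 5 tags a Poisson interval reaches from 1.62 to 11.7 tags, so the order of ECCs and limb buds at Wwp2 rests on 1 peak at the smallest size called. With all peaks in the annotated gene and 50 Kb on either side, Wwp2 had 2 peaks in both samples, and Smurf2 had 2 in ECCs and 1 in limb buds. The nearest PNST peak was 78.4 Kb past the gene.

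Smurf1 and Smurf2 direct Smad proteins and their receptors to degradation, and Smurf1 also acts on RhoA at the leading edge of migrating cells. Smurf1 (ENSMUSG00000038780.8, chr5:145637364-145726716, minus strand) had 3 peaks in limb buds and none in ECCs or PNST cells. The limb bud peaks had 11 tags 4.70 Kb upstream of the start, 8 tags in intron 10 and 14 tags downstream, and the first holds 2 E-boxes. The nearest PNST peak was 34.6 Kb from Smurf1, with 7 tags, and is assigned in the list to Kpna7. The nearest ECC peak was 153 Kb away.

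Smurf2 (ENSMUSG00000018363.10, chr11:106681380-106782029, minus strand) had 1 peak in ECCs, 1 in limb buds and none in the PNST line. The nearest PNST peak was 279 Kb from the gene. The limb bud peak had 8 tags and lay in intron 1. The ECC peak, 25.6 Kb upstream, had 10 tags, a count that 88.0% of its list did not exceed, and the lowest fold enrichment of the ECC member peaks, 9.34. It holds 10 of the 16 E-box sites found in ECC member peaks, and its plus strand, chr11:106807451-106807727, is shown for that reason, chosen after its values were seen.

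Smurf2 upstream peak, ECCs: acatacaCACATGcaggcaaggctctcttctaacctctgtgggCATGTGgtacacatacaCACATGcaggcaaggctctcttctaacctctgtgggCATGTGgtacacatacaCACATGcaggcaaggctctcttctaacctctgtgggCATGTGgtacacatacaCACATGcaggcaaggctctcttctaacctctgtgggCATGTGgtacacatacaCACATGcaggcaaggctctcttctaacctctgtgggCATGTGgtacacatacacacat

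The letters repeat in tandem, with CACATG and CATGTG alternating. The 10 sites are therefore copies of 1 unit and not separate sequences.

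Nedd4, the founding member, acts on growth factor signaling and on the sorting of membrane proteins, and embryos without it are small and do not survive. It had 7 peaks in limb buds and none in the other samples. The gene (ENSMUSG00000032216.7, chr9:72510364-72597649, plus strand) is the shortest of the family. Its limb bud peaks had 8, 8, 11 and 8 tags upstream, 10 tags in intron 1, 10 tags in intron 5 and 11 tags downstream. All 7 peaks held an E-box, 8 sites in all, and the peak nearest to the start was in intron 1, 4.13 Kb from it. The nearest ECC peak was 156 Kb and the nearest PNST peak 312 Kb from the gene.

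Hecw2, also called NEDL2, had 7 limb bud peaks and none in ECCs or PNST cells. It is the longest member, on the minus strand at chr1:53863726-54252012 (ENSMUSG00000042807.9). Peaks lay in introns 1, 2, 10, 17 and 26 and at 4.33 and 17.7 Kb upstream. The intron 2 peak had 16 tags, and the others 8 or 9. E-boxes were present in 4 of the 7. The nearest peak in ECCs was 111 Kb away and in the PNST line 398 Kb away.

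**Figure D3:**
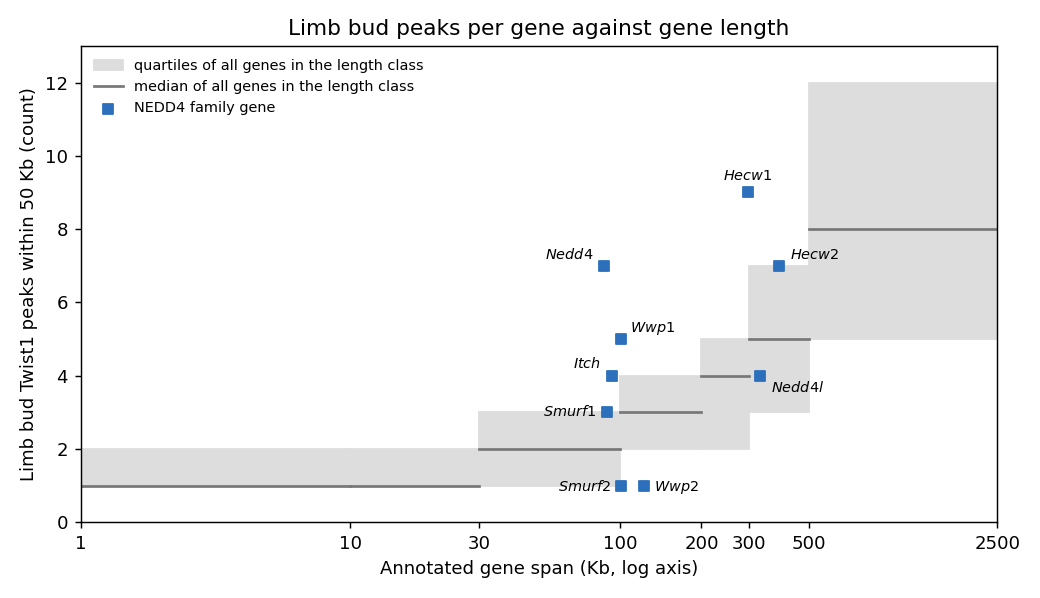
Number of limb bud Twist1 peaks within 50 Kb (vertical axis) against the annotated span of the gene (horizontal axis, Kb, log scale) for the 9 genes, with gray boxes and lines for the quartiles and medians of all genes of each length class that the lists name. Hecw1 with 9, Nedd4 with 7, Wwp1 with 5 and Itch with 4 peaks lie above the upper quartile of their class, and Wwp2 and Smurf2 with 1 peak lie below the lower quartile.

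Peak number rose with gene length across the genes named in the lists in limb buds, with a median of 2 peaks at genes of 30 to 100 Kb, 3 at 100 to 200 Kb, 4 at 200 to 300 Kb and 5 at 300 to 500 Kb. Hecw1, with a span of 297 Kb and 9 peaks, was above the upper quartile of 5 for its class. Nedd4, with 87.3 Kb and 7 peaks, was above an upper quartile of 3, as was Itch with 93.3 Kb and 4 peaks. Wwp1 with 5 peaks exceeded its upper quartile of 4, whereas Wwp2 and Smurf2, each with 1 peak, were under the lower quartile of 2. Hecw2 with 7 and Nedd4l with 4 peaks were within the quartiles of 3 and 7. The family thus had no common position relative to genes of its length.

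Nedd4l, known for the removal of the epithelial sodium channel from the cell surface, carried the strongest peak of the family in every tissue. The gene (ENSMUSG00000024589.8) is on the plus strand at chr18:65047410-65377480, and the peak lies in intron 5, 216 Kb from the start. It had 45 tags in ECCs, 50 tags in limb buds and 40 tags in the PNST line, and 76 bp were common to the 3 peaks. Fold enrichment was 125.31, 93.01 and 117.19, at or above 99.4%, 99.9% and 99.8% of the peaks in each list. Its scores, 851.08, 875.48 and 521.1, were the highest of all member peaks in their tissue. Per 1000000 filtered tags it reached 14.3 in ECCs (10.4 to 19.1), 3.36 in limb buds (2.49 to 4.43) and 3.38 in the PNST line (2.42 to 4.61). The ECC interval lies above both others, which overlap each other. MACS kept at most 1 tag at each position, which limits the count in a narrow peak. The Poisson intervals do not cover this limit. The ratio between libraries of unequal depth is therefore a description of these libraries and not a measured tissue difference.

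**Figure D4:**
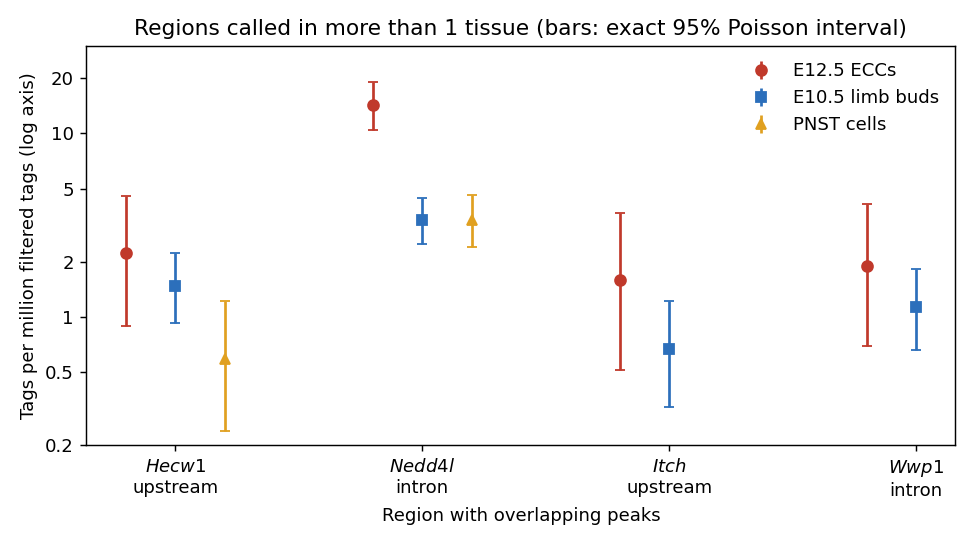
Tags per 1000000 filtered tags (vertical axis, log scale) in the 4 regions called in more than 1 tissue, with bars for the exact 95% Poisson interval of each single sample. At Hecw1, Itch and Wwp1 the intervals of the tissues overlap, and at Nedd4l the ECC value of 14.3 stands above the limb bud value of 3.36 and the PNST value of 3.38.

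The Nedd4l intron 5 region holds no E-box in any of the 3 peaks. In the ECC and limb bud peaks, 70.0% and all of the 32-mers occur more than once in mm9, and in the PNST peak, which reaches farther into the neighboring sequence, 44.9%. Limb buds had 3 further Nedd4l peaks, with 9 tags 4.78 Kb upstream, 11 tags in intron 2 and 13 tags downstream, none of them with an E-box. PNST cells had 1 further peak of 9 tags in intron 5 with 2 E-boxes.

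Over the family, 4 regions were called in more than 1 tissue, at Hecw1 and Nedd4l in all 3 and at Itch and Wwp1 in ECCs and limb buds. Of the ECC member peaks 4 of 9 were overlapped by a peak of another tissue over at least 5% of their length, against 34.0% of all ECC peaks. In limb buds this was 4 of 41 against 8.86%, and in the PNST line 2 of 7 against 18.5%. Peaks of both other tissues overlapped 2 of 9 in ECCs, 2 of 41 in limb buds and 2 of 7 in the PNST line, where the lists had 5.85%, 1.36% and 9.03%. Each count is of 2 regions, and the 3 counts describe the same 2 regions. Most member peaks, 5 in ECCs, 37 in limb buds and 5 in the PNST line, were found in 1 tissue alone.

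No member peak had its summit in an exon of the longest coding transcript. Introns held 4 of 9 summits in ECCs, 17 of 41 in limb buds and 5 of 7 in the PNST line. Upstream sequence held 5, 17 and 1, and downstream sequence none, 7 and 1. At all named genes with a span of at least 87286 bp, summits were in introns at 67% in ECCs, 67.3% in limb buds and 69.7% in the PNST line. Upstream sequence held 17.6%, 17.9% and 14.9%, downstream sequence 15.0%, 14.5% and 14.9%, and exons 0.409%, 0.307% and 0.393%. Summits in exons were thus rare at any long gene, and the members had a lower share in introns than these genes in ECCs and limb buds. This difference was not tested, and the genes were not matched for length beyond the minimum. A class of 189 named genes spans 500 Kb or more, longer than any member, with a mean of 9.06 limb bud peaks per gene. No summit overlapped another gene of the annotation.

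**Figure D5:**
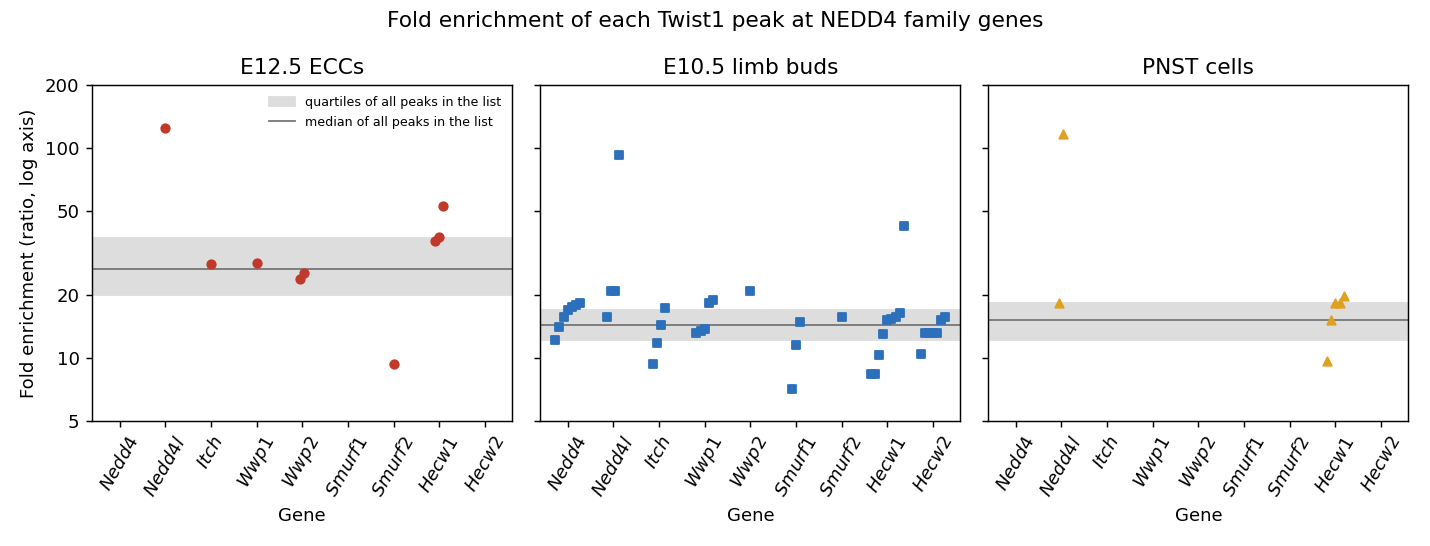
Fold enrichment (vertical axis, ratio to the local background, log scale) of each member peak by gene (horizontal axis) in the 3 tissues, with the median (line) and quartiles (gray band) of all peaks in the same list. The Nedd4l intron 5 peak, at 125.31, 93.01 and 117.19, stands above all others, followed in ECCs and limb buds by the Hecw1 upstream peak at 52.91 and 42.61.

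Taken as a set, with the regions at Nedd4l and Hecw1 included, member peaks were near the medians of their lists in size. In ECCs 6 of 9 had no more tags than the median of the list, in limb buds 24 of 41 and in the PNST line 4 of 7. More tags than the upper quartile of the list were found in 2, 11 and 1 member peaks. Median fold enrichment was 28.34 for member peaks in ECCs, 15.19 in limb buds and 18.21 in the PNST line, beside 26.46, 14.37 and 15.17 for all peaks. In ECCs the lowest was 9.34 at Smurf2, in limb buds 7.1 at Smurf1 and in the PNST line 9.62 at Hecw1.

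E-boxes were found in 5 of 9 member peaks in ECCs, 24 of 41 in limb buds and 4 of 7 in the PNST line. The motif searched was CANNTG, which reads the same on both strands. Among all placed peaks of these lists 54.7%, 56.0% and 54.0% held it, so the share in member peaks was close to that of any peak. Within 50 bp of the summit it was present in 3, 14 and 4 member peaks. CACCTG with its complement CAGGTG made up 13 of 35 sites in limb bud member peaks, 3 of 7 in the PNST line and 1 of 16 in ECCs, beside 23.9%, 14.5% and 29.0% of the sites in all placed peaks. In ECCs 12 of 16 sites were CACATG with its complement CATGTG, against 14.5% of all sites there, and 10 of these 12 are in the tandem repeat at Smurf2. By gene, limb bud peaks with an E-box were 7 of 7 at Nedd4, 8 of 9 at Hecw1 and 4 of 7 at Hecw2, but 1 of 4 at Itch, 2 of 5 at Wwp1 and 0 of 4 at Nedd4l.

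Nearly all member peaks lay in sequence that is present more than once in the genome. A peak was counted here when more than 50% of its 32-mers occur at least 1 further time in mm9. This held for 9 of 9 peaks in ECCs, 41 of 41 in limb buds and 5 of 7 in the PNST line, and for 94.8%, 98.6% and 96.1% of all placed peaks. No member peak was free of repeated 32-mers. In the Hecw1 upstream region the median 32-mer had 40 copies in the ECC peak, 200 in the limb bud peak and 269 in the PNST peak. In the Itch region it had 285 and 166 copies, and in the Wwp1 region 1660 and 1629. In the Nedd4l intron 5 region it had 1305 copies in the ECC peak, 1315 in the limb bud peak and 1 in the PNST peak. The reads were 50 bp long, and the part of repeated sequence in these peaks was not tested.

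Genes that work with the family were looked up in the same way. Of 15 other HECT ligases 9 had a peak in ECCs, 12 in limb buds and 2 in the PNST line. This is 60.0%, 80.0% and 13.3%, beside the 36.3%, 87.5% and 23.6% of all gene names with one. For these partner genes the shares of gene names were not matched for gene length. The most peaks were at Hace1, with 1 peak in ECCs, 8 in limb buds and none in the PNST line. Herc6 had 1, 5 and 2 peaks, and Ube3a had 3, 5 and none. Of 13 adaptors and regulators, which bring NEDD4 ligases to substrates or control their activity, 4, 11 and 4 had a peak, or 30.8%, 84.6% and 30.8%. The kinase gene Sgk1, whose product holds back Nedd4l, had 1, 12 and 1 peaks. The adaptor Ndfip2 had 1, 5 and 1 peaks and Ndfip1 had 1, 4 and none.

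Of 29 substrates and partners, 5 had a peak in ECCs, 19 in limb buds and 4 in the PNST line, or 17.2%, 65.5% and 13.8%. Erbb4 had none, 10 and 2 peaks, Rap2a 2, 10 and none, and the BMP receptor gene Bmpr2 none, 10 and none. Of 5 E2 enzymes, 1 had a peak, Ube2l3, with 10 tags in limb buds. Unlike the shares of gene names, which count only genes named in a list, these counts include genes that no list named, among them 6 substrates and 4 E2 enzymes.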

How the data were processed

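Twist1 ChIP-seq was performed with 1 pooled sample for each of 3 tissues. The authors mapped reads of 50 bp to mm9 (Eland v2 and Bowtie are named) and ran MACS 1.4.2 on every sample separately, with a band width of 300 bp and a largest p-value of 1e-05. The deposited lists give tags per peak as a count after the duplicate filter, not normalized for depth. The deposited p-value column is 10 times the −log10 of the p-value. The deposited fold enrichment is the ratio to the local background. Per the file headers no control file was used, whereas the methods name FVB/N genomic DNA.

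Deposited distances run from the peak start. For peaks naming 1 gene on both sides, they led to annotated exon boundaries within 2 bp in 77.7% to 78.8%. The limit of 50 Kb used here applies to these distances, whereas the paper words its limit as a distance from a transcription start. Genes, introns and starts came from GENCODE vM1 and sequences from the mm9 genome (NCBIM37). Overlap required 5% of the member peak. Shares have exact Clopper-Pearson intervals. Counting code in Python 3.11.15 (pandas 2.3.3, scipy 1.17.1) was tested on simulated peaks.

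All 9 members were described. For each, the text names the peak with the most tags, regions overlapped between tissues and the nearest peak where none was called. In each list of partner genes, up to 3 with the most peaks are named. Members and lists were chosen with earlier results of these data known. Alternatives were another p-value, fold, distance limit, gene side, list length, annotation, merging, overlap and E-box window. The deposited limb bud list is several times longer than that of the study’s supplement, which was not used. The control library and expression data were not analysed here.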

Additional observations from a re-analysis of the deposited data

How the results depend on the processing

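Of 57 values recomputed under the alternatives, 31 stayed within 1.5 times the reported count and 26 moved further. Counts are given in the order ECCs, limb buds and PNST cells. At a p-value of 1e-10 or smaller there were 1, 6 and 1 member peaks in 1, 3 and 1 genes, and 1, 1 and 1 of them were shared, at Nedd4l. With a fold enrichment of at least 20, limb buds kept 5 peaks in 3 genes and PNST cells 1 peak in 1 gene, while ECCs had 8 peaks in 5 genes. A deposited distance of at most 10 Kb left 4, 16 and 4 peaks, with 3 genes in ECCs and 1 in the PNST line, and 2, 2 and 1 shared peaks. Inside a gene this distance mostly runs to an exon boundary. The Nedd4l peaks in intron 5, at 23960 to 24001 bp by that distance, were thus dropped although they lie within the gene. With lists of equal length (7538 peaks), limb buds had 9 peaks in 5 genes, and none at Nedd4, Smurf1, Wwp2 or Smurf2. With the annotated span and 50 Kb on either side in place of the deposited names, PNST cells had 4 genes, since peaks beside Itch and Smurf1 that name other genes were included, and Wwp2 had 2 peaks in both ECCs and limb buds. Within 50 bp of the summit, E-boxes were found in 3 peaks in ECCs and 14 in limb buds. Other overlaps, the nearer gene alone and merging of peaks within 200 bp moved no count by more than 1.5 times. When 50% of both peaks had to overlap, the Wwp1 region was no longer shared, which left 3, 3 and 2 shared peaks.

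No paired analysis was possible because each tissue had 1 sample. For the same reason no sample was left out. The smallest peaks called had 5, 8 and 7 tags, which limits the detection of weak regions.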
